A study of Mus musculus with 18 samples.

Results

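The genes for hnRNPs, SR proteins and core spliceosome proteins were represented by 89 cDNA clones of 53 genes, among 15360 clones on the arrays. These were all clones whose single gene symbol begins with Hnrnp, Srsf, Snrp, Sf3a, Sf3b, U2af or Prpf, or an older form of these, with a value in every condition, on 1 array or both. The hnRNP class held 32 clones of 17 genes, the SR class 17 clones of 9 genes and the spliceosome class 40 clones of 27 genes. Within the spliceosome class, 14 clones were of snRNP proteins (Snrp), 2 of Sf3a, 10 of Sf3b, 2 of U2af1l4 and 12 of Prpf genes. All 89 met the filter, and 56 had a value on every array. A further 1 clone was left out because it carries several symbols.

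RNA came from embryoid bodies (EBs) cultured in the absence of LIF for 1, 2, 3 or 4 days (D1-LIF to D4-LIF), from EBs cultured in its presence over the same days (D1+LIF to D4+LIF), and from undifferentiated ES cells (D0). All 9 conditions derive from IMT11, a single wild-type mouse ES cell line from 129 mice, in serum-containing ES medium, and D0 cells were kept in LIF, the cytokine that holds mouse ES cells undifferentiated. EBs were aggregated from 1000 cells per hanging drop, so each EB sample is a mixture of cells, in which fewer cells of a type and less RNA per cell cannot be told apart. Each condition was hybridised on 2 arrays against a pooled control, with the sample labelled with Cy3 on one and with Cy5 on the other, which gives 18 arrays and leaves 1 array for each condition and dye. Per the labels there were 2 biological sets and the repeats used different RNA, but the set of an array is not given, so dye and set cannot be told apart.

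Splicing removes introns from pre-mRNA in the spliceosome, which is built on each intron from small nuclear ribonucleoprotein particles (snRNPs) and many further proteins. A ring of Sm proteins, encoded by the Snrpb and Snrpd to Snrpg genes, surrounds the small nuclear RNA, the Sf3a and Sf3b complexes belong to the U2 snRNP that binds the branch point, and the Prpf proteins act in the tri-snRNP and in the rearrangements that activate the spliceosome. SR proteins carry domains rich in arginine and serine, bind exons and help to recruit the spliceosome, whereas hnRNPs coat nascent transcripts and often hold splice sites back. The hnRNPs are abundant in dividing cells, and loss of Srsf3 or Hnrnpk is lethal to the mouse embryo.

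The reference promoters of 4 members are shown because results below turn on them: the study designed RT-PCR primers for Hnrnpk and Srsf3, Snrpe had the clone of smallest p against D0, and Snrpg holds the ETS motif found in many spliceosome promoters. They are the 250 bases before the annotated start (RefSeq, GRCm38.p6), 5′ to 3′ on the gene's strand, with motif matches in capitals. The Hnrnpk promoter (chr13:58402118-58402367, minus strand) and the Srsf3 promoter (chr17:29032410-29032659, plus strand) hold CCAAT, and that of Srsf3 also TATAAA. The Snrpe promoter (chr1:133610281-133610530, minus strand) holds none of the motifs searched, and the Snrpg promoter (chr6:86371290-86371539, plus strand) holds an ETS motif and CCAAT.
Hnrnpk: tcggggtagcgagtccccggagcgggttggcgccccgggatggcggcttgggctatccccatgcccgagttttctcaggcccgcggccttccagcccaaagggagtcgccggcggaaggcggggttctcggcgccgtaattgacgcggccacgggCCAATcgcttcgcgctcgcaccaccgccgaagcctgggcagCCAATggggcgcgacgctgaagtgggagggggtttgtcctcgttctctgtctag
Srsf3: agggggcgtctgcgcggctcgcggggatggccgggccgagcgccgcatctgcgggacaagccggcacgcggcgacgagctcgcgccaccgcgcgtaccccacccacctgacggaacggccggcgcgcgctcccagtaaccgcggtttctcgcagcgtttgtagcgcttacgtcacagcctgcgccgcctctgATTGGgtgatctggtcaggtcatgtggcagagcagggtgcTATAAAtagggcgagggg
Snrpe: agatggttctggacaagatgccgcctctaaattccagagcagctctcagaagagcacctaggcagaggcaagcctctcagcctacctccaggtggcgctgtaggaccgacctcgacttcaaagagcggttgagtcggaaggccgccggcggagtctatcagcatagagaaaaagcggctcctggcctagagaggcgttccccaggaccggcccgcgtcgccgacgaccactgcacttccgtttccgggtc
Snrpg: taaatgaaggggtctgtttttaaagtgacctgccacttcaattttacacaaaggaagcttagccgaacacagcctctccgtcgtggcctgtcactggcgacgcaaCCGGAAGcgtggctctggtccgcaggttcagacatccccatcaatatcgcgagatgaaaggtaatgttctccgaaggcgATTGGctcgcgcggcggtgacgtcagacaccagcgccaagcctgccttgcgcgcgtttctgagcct

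Promoters were matched for 47 of the 53 member genes, and motifs were searched on both strands and compared with the promoters of 27025 genes of the same length. The counts are of genes: for a member gene with several annotated starts, a match before any of them counted. The ETS motif CCGGAAG was present for 16 of 47 member genes (34.0%), against 7.83% of all genes. It was found for 11 of 23 spliceosome, 3 of 9 SR and 2 of 15 hnRNP genes, so most genes with a match belonged to the core machinery. The GC box GGGCGG was present for 29 of 47 (61.7%, against 35.4% of all) and CCAAT for 23 of 47 (48.9%, against 37.5%). CCAAT was present for 11 of the 15 hnRNP genes. TATAAA was found in 4 of 47 (8.51%, against 14.3%), CACGTG in 4 of 47 (8.51%, against 6.86%), the NRF1 motif in 1 of 47 (2.13%, against 0.877%) and the YY1 motif AAGATGGCG in 0 of 47 (0.710% of all). Member promoters had a median GC content of 59.6%, against 52.4% for all genes. These matches describe the letters only.

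Every level below is a log2 ratio of sample to pool with the median of that slide of that array taken off, so that 0 is the middle of all clones. The direction of the deposited ratios is not stated, and sample over pool was taken as likely, as is usual where samples are set against a pool, so every sign below rests on it. The values leave it unsettled: Cy3 and Cy5 arrays of the same condition correlated across all clones at -0.518 to 0.476, below 0 in 6 of 9 conditions, while arrays of 1 dye correlated at -0.244 to 0.775 (Cy3) and 0.345 to 0.911 (Cy5). On slide 2 a pair of Cy3 arrays, D3-LIF and D0, reached -0.310. Levels are therefore given for each dye apart, and the main differences also with the Cy3 signs reversed. Of 74 fitted differences of named clones over the 3 contrasts, 29 changed sign with Cy3 reversed and 61 under at least 1 of the alternatives tried. The D2-LIF and D1+LIF arrays in Cy5 lacked values for most and many clones of slide 1. The undifferentiated-cell list (including Pou5f1 and Nanog) was below its D0 level in EBs in 10 of 11 clones with a median of -1.78, but 0 of these passed the test, and extraembryonic endoderm markers were below in 11 of 21. Ranked among all clones of a slide, 9 of the 11 were lower in EBs on Cy3 and 6 on Cy5. The housekeeping genes Actb, Gapdh and Hprt were below D0 in 14 of 15 clones with a median of -2.23, so the fall was not particular to these markers. Mesendoderm and neurectoderm lists were measured by 1 clone each, which does not allow a check of those lineages.

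The splicing classes stood apart from the middle of the arrays, in opposite directions in the 2 dyes. Over its 9 Cy3 arrays the median level of a clone was above 0 for 73 of 89 members, against 48.2% of all clones, and over its 9 Cy5 arrays it was above 0 for 10 of 89, against 52.3% of all clones. The hnRNPs were furthest out: 30 of 32 hnRNP clones had a Cy3 median above 0, and 0 of 32 had a Cy5 median above 0. For SR proteins these counts were 14 of 17 and 5 of 17, and for spliceosome proteins 29 of 40 and 5 of 40. The housekeeping genes Actb, Gapdh and Hprt had medians that were high on most Cy3 arrays and low on all Cy5 arrays, at -0.36 to 4.29 on Cy3 and -2.50 to -0.93 on Cy5 over the 9 conditions, and the part that signal strength or dye bias plays in it was not tested.

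Ranked among all clones of their slide, the hnRNPs had a median percentile of 88.4 at D0 on Cy3. It was 19.3, 94.4, 30.8 and 96.0 at D1-LIF to D4-LIF, and 93.3, 89.1, 44.0 and 89.1 at D1+LIF to D4+LIF. Thus 3 of the 8 EB arrays in Cy3 (D3+LIF, D3-LIF and D1-LIF) lay far below the other 5. The SR class lay between 42.8 and 54.3 on those 3 arrays and between 80.6 and 91.6 on the other 6 Cy3 arrays, and the spliceosome class between 21.3 and 43.9 and between 55.4 and 74.7. On Cy5 the hnRNPs stayed between 5.44 and 10.2 on all 9 arrays, the SR class between 9.36 and 20.0 and the spliceosome class between 22.3 and 29.1. The order of the classes on Cy5 was the same in all 9 conditions, with hnRNPs lowest and spliceosome proteins highest, and no such constant order was seen on Cy3. The 3 low Cy3 arrays do not share a day or a medium. Actb, Gapdh and Hprt were low on the same arrays, at median percentiles of 4.89 to 30.0. On the other 6 Cy3 arrays they lay at 73.9 to 98.3, so the drop was not particular to splicing genes. On both slides, Cy3 and Cy5 correlated positively in just these 3 conditions (0.198 to 0.560 on slide 2) and negatively in the rest. The cause was not tested.

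**Figure D1:**
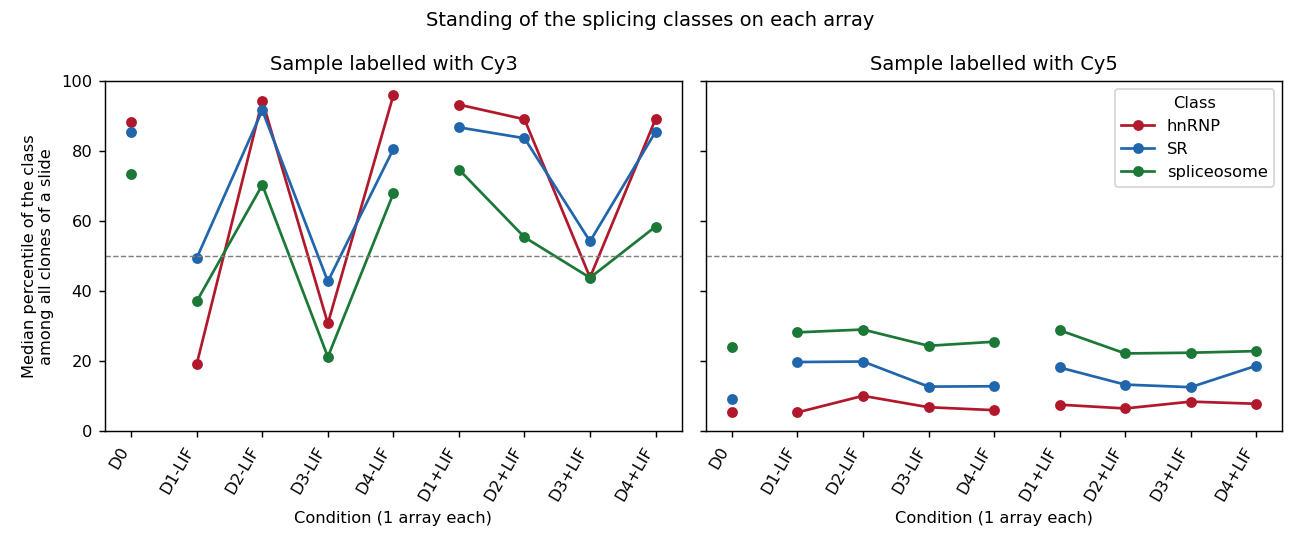
Median percentile of each class among all clones of a slide (y axis, 0 to 100) in the 9 conditions (x axis), for samples labelled with Cy3 (left) and Cy5 (right), 1 array per point; lines join the EB days of a medium and the dashed line marks 50. On Cy3 all 3 classes are low at D3+LIF, D3-LIF and D1-LIF, and on Cy5 the hnRNPs stay between 5.44 and 10.2.

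Within the hnRNP class the median log2 ratio on Cy3 was 1.43 at D0, -0.13, 0.77, -0.07 and 0.50 at D1-LIF to D4-LIF, and 0.28, 0.21, -0.04 and 0.22 at D1+LIF to D4+LIF. On Cy5 it was -0.84 at D0, -2.13, -0.94, -1.36 and -1.45 without LIF, and -1.49, -1.77, -1.32 and -2.18 with LIF. D0 was the highest of the 9 arrays in both dyes, and with the Cy3 signs reversed it would be the lowest on Cy3. The same held for the SR class, with -0.03 to 0.46 in EBs against 0.66 at D0 on Cy3 and -1.22 to -0.55 in EBs against -0.53 at D0 on Cy5, and for the spliceosome class, with -0.10 to 0.24 in EBs against 0.75 at D0 on Cy3 and -0.64 to -0.23 in EBs against -0.21 at D0 on Cy5.

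**Figure D2:**
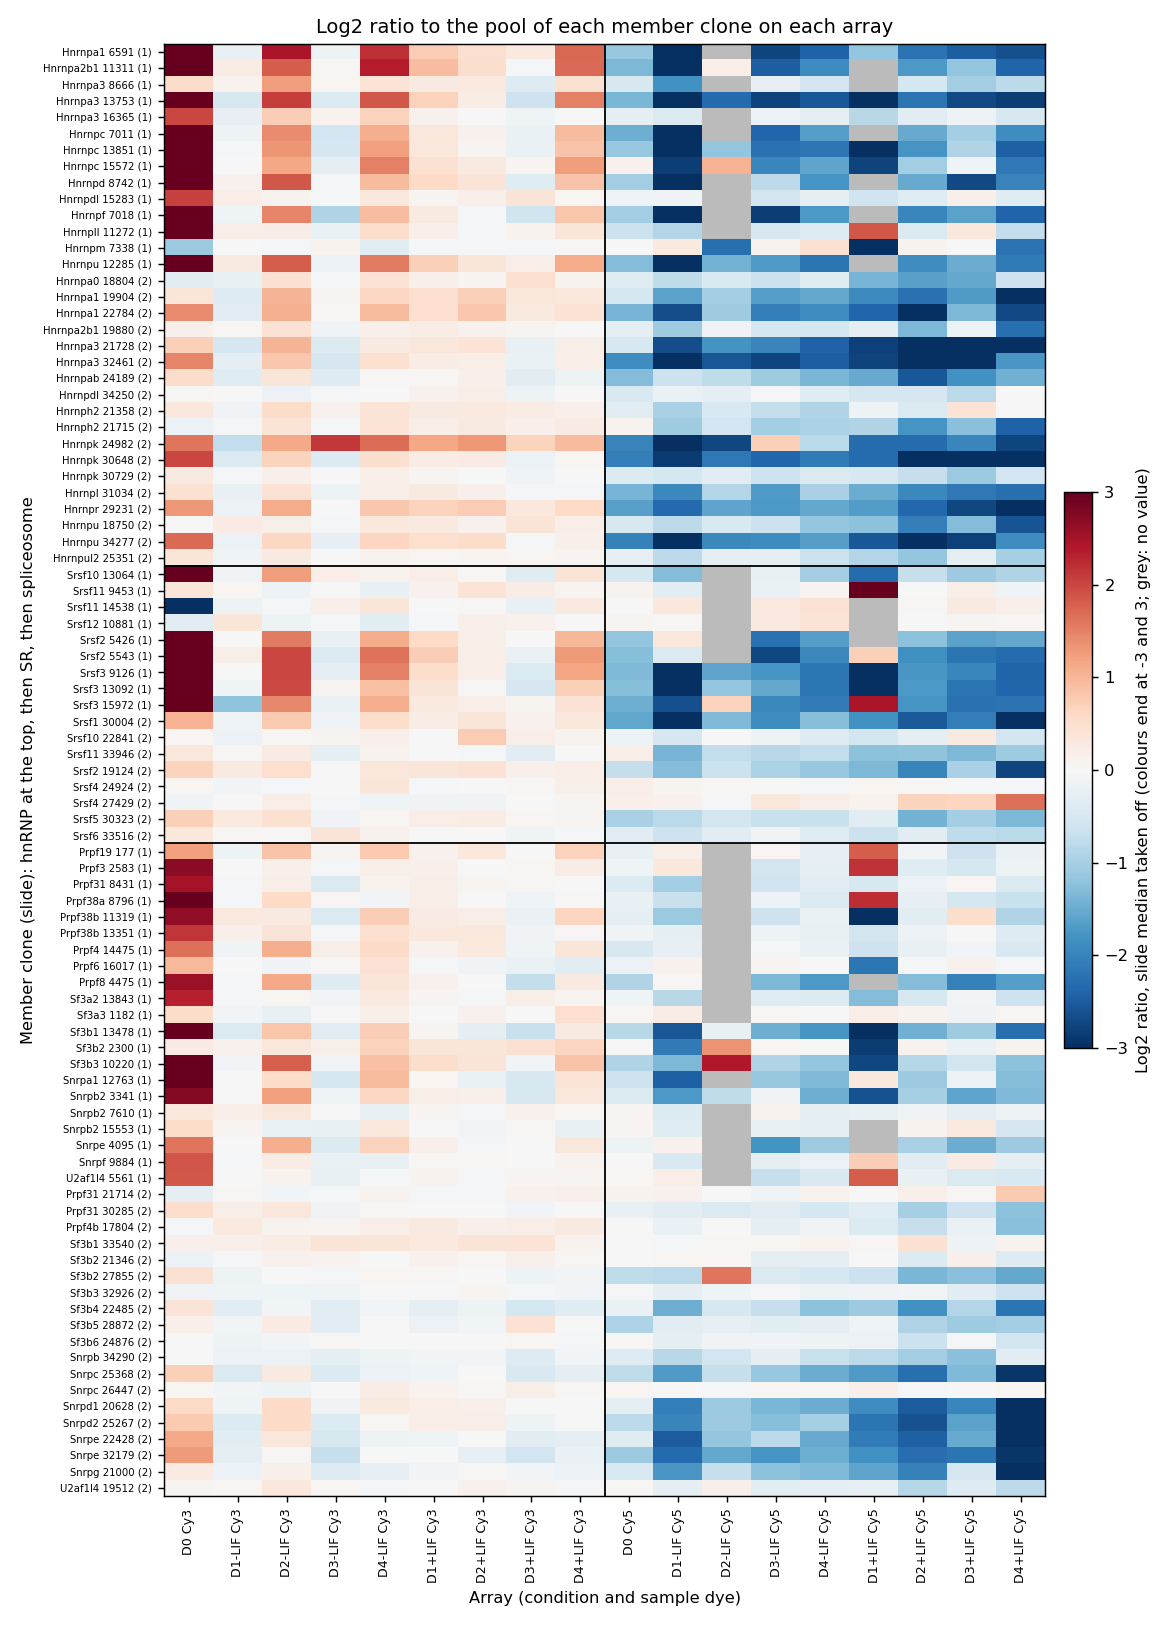
Log2 ratio to the pool of each of the 89 member clones (rows, with the slide in brackets, ordered by class) on each of the 18 arrays (columns, Cy3 left and Cy5 right of the line); red is above and blue below the slide median, and grey marks no value. Cy3 values of most members are red at D0 on slide 1, and Cy5 values are blue for most hnRNPs in every condition.

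Against D0, most members lay lower in EBs. The fitted difference, mean of the 8 EB conditions minus D0, was below 0 for 79 of 89 members, against 49.1% of all clones, and its median was -0.87 for hnRNPs, -0.52 for SR proteins and -0.78 for spliceosome proteins, against 0.01 for all clones. By limma with Benjamini-Hochberg adjustment over all clones, 0 of 89 members passed an adjusted p of 0.05 (0.189% of all clones passed), and the lowest adjusted p of a member was 0.0792. At an unadjusted p under 0.05 there were 38 members, 37 lower and 1 higher (33.3% of all clones). Without the D0 array in Cy5, which left the widely spread Cy3 array alone for D0, 36 members passed (36.3% of all clones did), and without the D4+LIF array in Cy3 3 passed (2.40% of all clones; Snrpe 32179 and 22428, Hnrnpa3 32461). Day by day, 0 members passed in any of the 8 comparisons of an EB condition with D0 (0% of all clones), and 60 had an unadjusted p under 0.05 in at least 1 of them (52.1% of all clones). Relative to all clones, the class medians differed between EBs and D0 by -0.71 ± 0.24 for hnRNPs, -0.29 ± 0.16 for SR proteins and -0.57 ± 0.40 for spliceosome proteins (mean of the 2 dyes ± SD, n = 2).

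These shifts depended on how the arrays were scaled. Actb, Gapdh and Hprt, which the study itself described as variable, were below 0 in 14 of 15 clones with a median of -2.23, and the part of any common shift in the members' differences was not tested. The spread of all clones on the D0 array was larger than on each of the 8 EB arrays in Cy3 (SD on slide 1 of 0.211 to 0.630 in EBs and 2.23 at D0) and smaller than on each of the 8 in Cy5 (0.496 to 2.40 in EBs and 0.317 at D0). With arrays scaled to equal median absolute deviation, 37 of 89 members were below 0 with a median of 0.04, and after quantile normalization 50 of 89 with a median of -0.04. With the Cy3 signs turned, 32 of 89 were below 0 with a median of 0.22. In percentiles, which use no scale, members were lower in EBs than at D0 by a median of 19.3 points on Cy3 (65 of 89 lower) but higher by 2.72 points on Cy5 (35 of 89 lower), so the dyes disagreed. On slide 2 alone, where the D0 array in Cy3 was less spread than on slide 1 (SD 0.491), 39 of 45 members were below 0 with a median of -0.29. Spreads were unequal there too: EB arrays had an SD of 0.166 to 0.30 in Cy3. In Cy5 it was 0.592 to 1.41 in EBs and 0.426 at D0. Centring whole arrays moved the all-clone median to 0.105 and left 73 of 89 members below it, and without centring that median was 0.54, again with 73 of 89 below it. Below 0 itself were 67 of 89 members with whole arrays centred (member median -0.33) and 39 of 89 without centring (member median 0.11).

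All EB arrays lay below the D0 array for 60 of 89 members on Cy3 (36.4% of all clones) and for 23 of 89 on Cy5 (12.3% of all clones). Both held for 15 members (6.69% of all clones), and with the Cy3 signs reversed for 3 (2.46% of all clones). Of the 15, 6 were hnRNPs (Hnrnpa1 clone 6591, Hnrnpf 7018, Hnrnpu 12285, Hnrnpa3 13753, Hnrnpul2 25351 and Hnrnpk 30648), 2 were SR proteins (Srsf3 9126 and Srsf11 33946), and 7 were spliceosome proteins (Snrpd1 20628, Snrpd2 25267, Snrpe 22428 and 32179, Snrpg 21000, Sf3b4 22485 and Prpf31 30285). The spliceosome members included 5 clones of Sm proteins.

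Snrpe encodes SmE, a component of the Sm ring. Its clone 32179 read -0.29, 0.05, -0.68 and 0.01 at D1-LIF to D4-LIF and 0.01, -0.25, -0.58 and -0.20 at D1+LIF to D4+LIF on Cy3, against 1.28 at D0. On Cy5 it read -2.33, -1.55, -1.78 and -1.46 without LIF and -1.82, -2.29, -2.19 and -2.91 with LIF, against -1.09 at D0. No EB array overlapped with D0 in either dye. The fitted difference was -1.23 (SE 0.25, limma unadjusted p = 0.000634, adjusted p = 0.0792), the smallest p among the members, and with the Cy3 signs reversed it was 0.29. Clone 22428 of the same gene gave -1.46 (SE 0.44) and clone 4095 gave -1.08 (SE 0.33), so the 3 Snrpe clones agreed in size. Snrpd1 (SmD1), Snrpd2 (SmD2) and Snrpg (SmG) ranged from -0.42 to 0.58 in EBs on Cy3, against 0.26 to 0.78 at D0, and from -3.63 to -0.50 in EBs on Cy5, against -0.77 to -0.30 at D0.

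Hnrnpa1, a shuttling hnRNP that blocks splice sites, was measured by 3 clones. Clone 6591 on slide 1 read -0.23 to 2.46 on the 8 EB arrays in Cy3, against 4.91 at D0, and -4.39 to -1.20 on 7 EB arrays in Cy5, against -1.15 at D0. Its fitted difference was -2.62 (SE 0.66, adjusted p = 0.0945 by limma). Clones 19904 and 22784 on slide 2 gave -0.64 (SE 0.38) and -0.85 (SE 0.34), and on Cy3 clone 19904 overlapped with D0, at -0.38 to 1.03 in EBs and 0.37 at D0. Thus, with the signs as assumed, direction was shared by the clones and size was not. With the Cy3 signs reversed the differences were 1.20, -0.68 and 0.09 for clones 6591, 19904 and 22784, so direction was then not shared either.

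Hnrnpa3, a close relative of Hnrnpa1, had 5 clones, the most of any member gene, and all 5 were below 0. Clone 32461 read -0.50 to 0.81 on Cy3, against 1.46 at D0, and -3.52 to -1.75 on Cy5, against -1.85 at D0, where only D4+LIF lay above D0. The fit gave -1.12 (SE 0.26, adjusted p = 0.0916 by limma). Clone 13753 gave the largest difference of the 5, at -2.80 (SE 0.67), and clone 8666 the smallest, at -0.22 (SE 0.26). With the Cy3 signs reversed, clones 13753, 16365 and 32461 were above 0, at 1.05, 0.83 and 0.22. Clones 8666 and 21728 then stayed below 0, at -0.12 and -0.90.

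Hnrnpc, which binds uridine tracts in nascent RNA, had 3 clones, all on slide 1. Clone 13851 read -0.50 to 1.31 on Cy3, against 4.64 at D0, and -3.84 to -0.89 on Cy5, against -1.14 at D0. Clone 15572 read -0.28 to 1.50, against 4.79, and -2.82 to 1.05, against 0.13. EBs were below D0 on every Cy3 array, and overlapped with D0 on Cy5. Hnrnpf 7018, which binds runs of guanine, had no overlap in either dye, with -0.91 to 1.45 on Cy3, against 4.35 at D0, and -3.80 to -1.61 on 6 EB arrays in Cy5, against -1.04 at D0.

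Srsf3, the smallest of the classical SR proteins, had 3 clones on slide 1. Clone 9126 read -0.02, 2.01, -0.26 and 1.50 at D1-LIF to D4-LIF and 0.52, 0.20, -0.41 and 1.18 at D1+LIF to D4+LIF on Cy3, against 4.58 at D0. On Cy5 it read -3.08, -1.58, -1.76 and -2.16 without LIF and -3.77, -1.75, -1.95 and -2.40 with LIF, against -1.33 at D0. All 16 EB values were below D0 of their dye. The fit gave -2.48 (SE 0.69, adjusted p = 0.0945 by limma) for this clone, -2.53 (SE 0.67) for clone 13092 and -1.88 (SE 1.00) for clone 15972, and with the Cy3 signs reversed it was 1.51 for clone 9126. Clone 15972 departed from the others on the Cy5 arrays poor in values, at 0.69 in D2-LIF and 2.44 in D1+LIF.

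Most other hnRNP clones had fitted differences below 0 with wide errors, the exceptions being Hnrnpdl 34250 (0.03, SE 0.16) and Hnrnpm 7338 (0.04, SE 0.88). Hnrnpu, a scaffold attachment protein, gave -2.21 (SE 0.65) with clone 12285 on slide 1, and -0.29 (SE 0.39) and -0.90 (SE 0.34) with clones 18750 and 34277 on slide 2. Hnrnpa2b1, a partner of Hnrnpa1 in the core particle, gave -2.05 (SE 0.75) with clone 11311 and -0.27 (SE 0.33) with clone 19880. Hnrnpd, which binds AU-rich elements, gave -1.82 (SE 0.55). Single clones of Hnrnpa0, Hnrnpab, Hnrnpr, Hnrnpl and Hnrnpul2 on slide 2 lay between -0.65 and -0.04.

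Among the other SR proteins, Srsf2 gave -2.01 (SE 0.86) and -1.93 (SE 0.86) with the slide 1 clones 5426 and 5543, and -0.52 (SE 0.32) with clone 19124 on slide 2. Srsf10, which represses splicing when dephosphorylated, gave -1.68 (SE 0.53) with clone 13064 and -0.01 (SE 0.19) with clone 22841. Srsf1, the founding member of the family, gave -0.69 (SE 0.31), Srsf5 -0.21 (SE 0.23) and Srsf6 -0.21 (SE 0.12). Srsf4 gave -0.09 (SE 0.13) and 0.20 (SE 0.26) with its clones. The SR class thus held both values near -2.5 and values near 0, and the larger ones were on slide 1.

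In the U1 and U2 snRNPs, Snrpc, a U1 protein, gave -0.91 (SE 0.32) with clone 25368 and -0.02 (SE 0.10) with clone 26447, and Snrpa1 (U2 A') gave -2.21 (SE 0.80). Snrpb2, which binds U2 snRNA, gave -1.70 (SE 0.47), -0.24 (SE 0.15) and -0.43 (SE 0.19) with clones 3341, 7610 and 15553. Sf3a2 gave -1.38 (SE 0.36) and Sf3a3 -0.25 (SE 0.16), while Sf3b4, which contacts the pre-mRNA near the branch point, gave -0.84 (SE 0.28). Sf3b5 and Sf3b6 were at 0.12 (SE 0.27) and -0.14 (SE 0.14). Of the 12 Prpf clones 11 were below 0, with Prpf38b 11319 lowest at -1.55 (SE 0.74), and Prpf8 4475 gave -1.41 (SE 0.54). U2af1l4, a paralog of the small U2AF subunit that reads the 3′ splice site, gave -0.99 (SE 0.48) and -0.22 (SE 0.17).

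The members not below D0 were few. Srsf11 clone 14538, of an SR-related protein, was the only one higher in EBs at an unadjusted p under 0.05 by limma. The clone gave 2.10 (SE 0.66, adjusted p = 0.0962 by limma). Its value rests on 1 array: it read -0.22 to 0.35 on Cy3 in EBs, against -3.80 at D0, and 0.05 to 0.44 on 6 EB arrays in Cy5, against 0.00 at D0. Of the other clones of the gene, 33946 had the opposite sign, at -0.82 (SE 0.21), and 9453 the same sign, at 0.32 (SE 1.33). The next largest positive t belonged to Prpf31 21714 (0.16, SE 0.14) and Srsf12 10881 (0.20, SE 0.20), with unadjusted p of 0.291 and 0.347 by limma. Prpf31, a protein of the U4/U6 snRNP, was at -0.43 (SE 0.18) with its clone 30285.

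**Figure D3:**
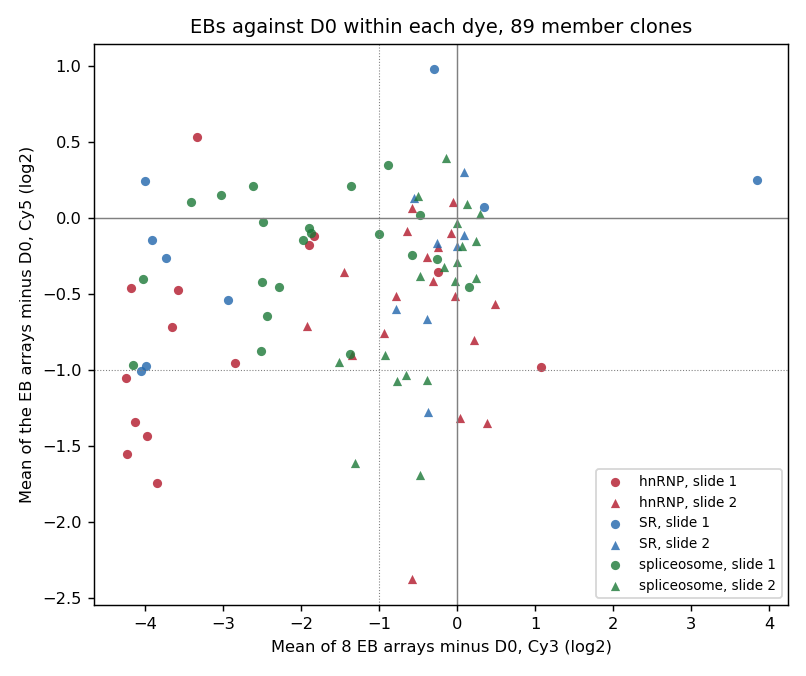
Mean of the EB arrays minus the D0 array for each of the 89 member clones within Cy3 (x axis, log2) and within Cy5 (y axis, log2), with colours for the 3 classes, circles for slide 1 and triangles for slide 2; dotted lines mark 2-fold lower. Most points lie left of 0 and below 0, the Cy3 differences of slide 1 reach below -4, and 7 clones lie beyond both dotted lines.

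A 2-fold difference in the same direction on both dyes, a fold criterion without a test, was met by 7 of 89 members between the EB mean and D0 (3.55% of all clones), all lower in EBs. They were Hnrnpa1 6591, Hnrnpf 7018, Srsf3 13092, Hnrnpa3 13753, Hnrnpc 13851 and 15572, and Snrpe 22428, of which 6 lie on slide 1. Between D1-LIF and D0 it was met by 24 of 89, all lower (7.28% of all clones), and between D2-LIF and D0 by 0 of 58 with values on both dyes (2.5% of all clones). The fold criterion of the study, at least 2-fold from the pool on all 4 spots of a condition, was met in any of the 9 conditions by 1 of 89 members (0.833% of all clones). It was Sf3b3 10220 in D2-LIF (0.389% of all clones in that condition), a U2 snRNP protein that read 1.78 on Cy3 and 2.40 on the sparse Cy5 array. With the values as deposited it was met by 1 other, Hnrnpk 24982 in D3-LIF (0.436% of all clones in that condition), and with the Cy3 signs turned by 20 of 89 (4.14% of all clones).

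LIF withdrawal gave small differences. Over Days 1 to 4, the fitted difference between EBs without and with LIF was below 0 for 23 of 89 members, against 54.5% of all clones. Relative to all clones the class medians were 0.14 ± 0.14 for hnRNPs, 0.17 ± 0.16 for SR proteins and 0.16 ± 0.17 for spliceosome proteins (mean of the 2 dyes ± SD, n = 2). Each of the 3 was about as large as its SD. Limma called 0 of 89 members (0% of all clones), 1 had an unadjusted p under 0.05 (3.44% of all clones), and the lowest adjusted p was 0.867. The dyes and slides differed: on slide 1, 12 of 44 members were below 0 on Cy3 and 20 of 44 on Cy5 (54.1% and 51.0% of all clones), and on slide 2, 26 of 45 on Cy3 and 6 of 45 on Cy5 (61.4% and 49.6% of all clones). With equal median absolute deviation the class medians were -0.20, -0.06 and -0.03, so the sign depended on the scaling. In percentiles, members were lower without LIF by a median of 7.70 points on Cy3 (61 of 89 lower, 53.2% of all clones). On Cy5 they were higher by 0.04 points (43 of 89 lower, 51.3% of all clones).

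Srsf6, an SR protein known for regulating alternative exons, had the smallest p for LIF withdrawal. Clone 33516 read 0.04, 0.04, 0.39 and 0.12 at D1-LIF to D4-LIF on Cy3, and 0.00, -0.02, -0.12 and -0.07 at D1+LIF to D4+LIF. On Cy5 it read -0.62, -0.32, -0.12 and -0.38 without LIF, and -0.65, -0.35, -0.76 and -0.82 with LIF. At each of the 4 days the value without LIF was above that with LIF in both dyes, by 0.03 to 0.64. With the Cy3 signs reversed the fitted difference was 0.04. Unreversed it was 0.24 (SE 0.08, unadjusted p = 0.00998, adjusted p = 0.867 by limma). Next in t were Hnrnpl 31034 (0.28, SE 0.13), which binds CA repeats, and Prpf31 30285 (0.26, SE 0.12), and on the negative side Hnrnph2 21358 (-0.35, SE 0.16), Srsf4 27429 (-0.29, SE 0.17) and Prpf31 21714 (-0.13, SE 0.10).

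Single days differed in direction. At Day 1, 59 of 89 fitted differences between EBs without and with LIF were below 0, at Day 2 19 of 89, at Day 3 41 of 89 and at Day 4 14 of 89, against 57.6%, 46.9%, 52.9% and 49.4% of all clones on the same days. The spread of all clones also differed by day. On slide 2 in Cy5 the SD was 0.850, 0.623, 0.664 and 0.592 at D1-LIF to D4-LIF. With LIF it was 0.702, 0.983, 0.860 and 1.41 on the same days. The part of these spreads in the signs was not tested. The 2-fold criterion on both dyes was met by 2 of 77 members at Day 1 (0.424% of all clones), Srsf3 15972 and Hnrnpk 24982, both lower without LIF. It was met by 4 of 58 at Day 2 (1.89% of all clones), Sf3b3 10220, Hnrnpa2b1 11311, Sf3b1 13478 and Srsf3 15972, all higher without LIF and all on slide 1, where the D2-LIF array in Cy5 held values for few clones. It was met at Day 3 by Hnrnpk 24982 alone, higher without LIF (0.026% of all clones), and at Day 4 by 0 members (0.0195% of all clones). At Day 1 the Cy5 difference of Srsf3 15972 rests on 2.44 at D1+LIF, on an array poor in values. Srsf3 9126 and 13092 were higher without LIF on Cy5 that day (-3.08 against -3.77, and -2.98 against -4.24).

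Between Days 3-4 and Days 1-2 the classes did not move together. The fitted difference was below 0 for 50 of 89 members, against 53.8% of all clones, and relative to all clones the class medians were 0.04 ± 0.15 for hnRNPs, 0.01 ± 0.14 for SR proteins and -0.07 ± 0.0025 for spliceosome proteins (mean of the 2 dyes ± SD, n = 2). On both dyes a 2-fold difference was met by 0 of 89 (0.00651% of all clones). Limma called 0 of 89 (0% of all clones), and Hnrnpk 24982 was the 1 member with an unadjusted p under 0.05 (1.6% of all clones). The F test over the 9 conditions called 0 of 89 (0% of all clones), with 8 members at an unadjusted p under 0.05 (3.92% of all clones). Those 8 were Hnrnpk 24982 and 30648, Hnrnpa3 13753 and 32461, Hnrnpa1 6591, Hnrnpl 31034, Srsf6 33516 and Snrpe 32179. By class they were 6 of 32 hnRNPs, 1 of 17 SR proteins and 1 of 40 spliceosome proteins.

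Hnrnpk, which binds poly(C) tracts and acts in transcription, splicing and translation, had 3 clones on slide 2. Clone 24982 read 1.61 at D0, -0.73, 1.12, 2.11 and 1.68 at D1-LIF to D4-LIF, and 1.17, 1.31, 0.68 and 0.94 at D1+LIF to D4+LIF on Cy3. On Cy5 it read -2.0 at D0, -3.35, -2.72, 0.71 and -0.81 without LIF, and -2.31, -2.31, -1.96 and -2.76 with LIF. In both dyes Days 3 and 4 without LIF were above Days 1 and 2 without LIF, with no overlap, and D1-LIF was the lowest of the 9 arrays. The D3-LIF and D4-LIF values were also the highest of the 9 arrays in both dyes.

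Over both media the difference of Days 3-4 from Days 1-2 was 1.05 for this clone (SE 0.27, unadjusted p = 0.00274), with an adjusted p of 1.0 by limma. It was 2.34 without LIF, and the difference between the media, 2.58, had an unadjusted p of 0.000677 and an adjusted p of 1.0 (0 clones called, 1.36% of all clones at an unadjusted p under 0.05). With the Cy3 signs turned the difference over both media was 0.42. The other Hnrnpk clones did not share it: clone 30648 gave -0.23 (SE 0.22) and clone 30729 gave -0.11 (SE 0.08). Clone 30648 read -0.40 and 0.47 at D3-LIF and D4-LIF on Cy3, against -0.44 and 0.68 at D1-LIF and D2-LIF, and -2.38 and -2.12 on Cy5, against -2.87 and -2.15, so the days overlapped in both dyes. Averaged over the 3 clones the gene gave 0.24.

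**Figure D4:**
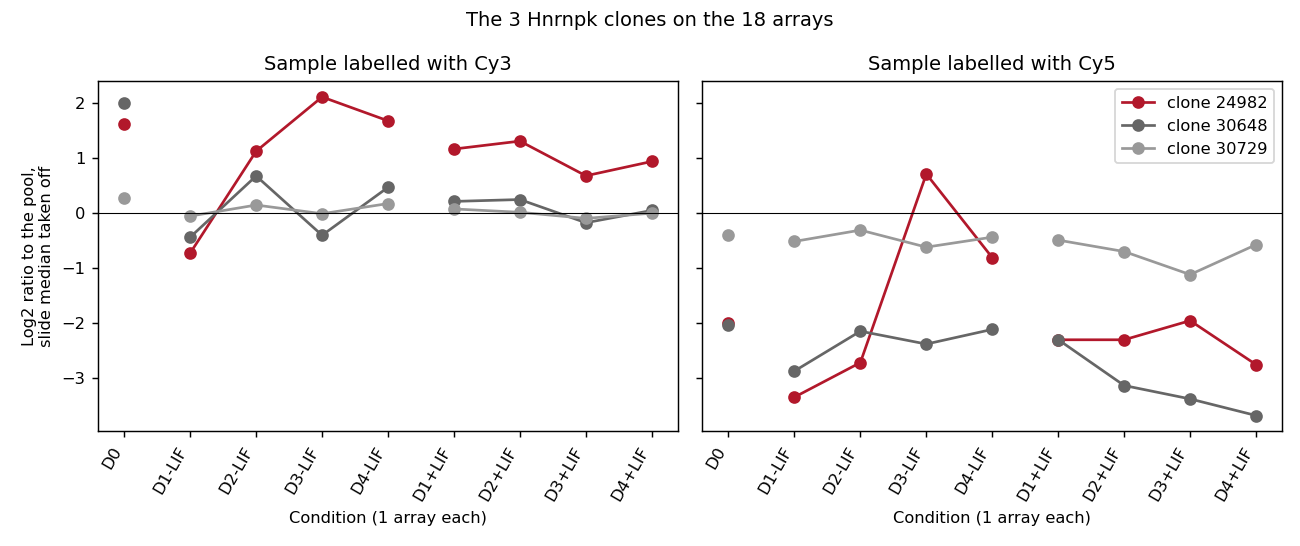
Log2 ratio to the pool of the 3 Hnrnpk clones (y axis) in the 9 conditions (x axis), for samples labelled with Cy3 (left) and Cy5 (right), 1 array per point; lines join the EB days of a medium. Clone 24982 reads 2.11 on Cy3 and 0.71 on Cy5 at D3-LIF, and clones 30648 and 30729 have no such peak.

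Next to Hnrnpk 24982, the clones of largest positive t were Srsf4 27429 (0.24, SE 0.17) and Sf3b2 2300 (0.53, SE 0.40), and those of largest negative t Snrpe 4095 (-0.49, SE 0.25), Prpf8 4475 (-0.66, SE 0.40) and Srsf2 5543 (-0.99, SE 0.61). Prpf8 is the central scaffold of the spliceosome, and Srsf2 binds exonic enhancers. Neither Prpf8 nor Srsf2 was on all the arrays poor in values, Prpf8 4475 lacking both and Srsf2 5543 lacking D2-LIF.

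Several clones were present for 22 genes. In 16 of the 22 all clones had a fitted EB minus D0 difference below 0, and 6 had clones on both sides of 0. Since 79 of 89 members were below 0, clones of different genes would mostly share this sign too. The count of 16 is therefore no check on the genes. The range between clones of a gene was 0.22 to 2.92, widest for Srsf11 and narrowest for Sf3b2. It was over 1 for 13 genes, and in 12 of the 14 genes with clones on both slides the clone furthest from 0 lay on slide 1, as for Sf3b1 (-2.56, SE 0.70 on slide 1 and 0.11, SE 0.13 on slide 2). Clones that cross-hybridise with close relatives, such as Hnrnpa1 and Hnrnpa3, could not be told apart from clones of their own gene on cDNA arrays.

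**Figure D5:**
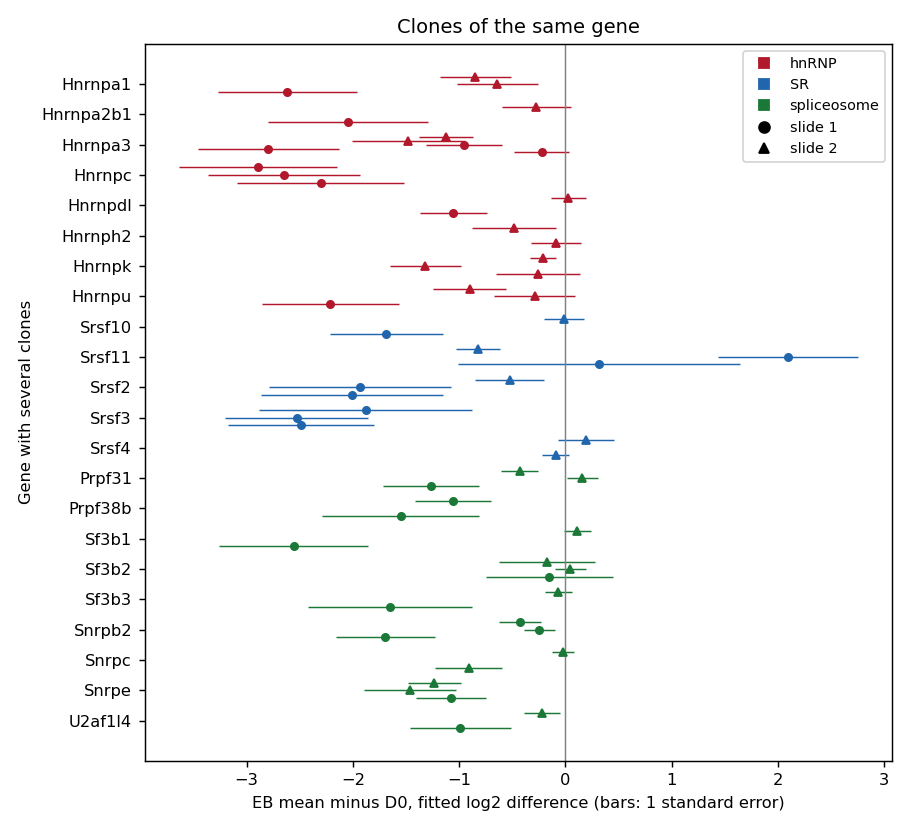
Fitted difference between EBs and D0 (x axis, log2, bars 1 standard error) for each clone of the 22 member genes with several clones (y axis), with colours for the classes, circles for slide 1 and triangles for slide 2. The clone furthest from 0 lies on slide 1 in 12 of the 14 genes with clones on both slides, and the Srsf11 clones fall on both sides of 0.

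Other splicing genes outside the 3 classes, among them SR protein kinases, exon junction, Lsm and RNA helicase genes, were measured by 127 clones of 79 of 103 listed genes. Their fitted EB minus D0 difference was below 0 for 95 of 127 clones (49.1% of all clones), with a median of -0.41. By limma, 58 had an unadjusted p under 0.05 (7 higher, 51 lower), against 33.3% of all clones. The adjusted test was passed by 0 (0.189% of all clones). For LIF withdrawal 51 of 127 were below 0 (54.5% of all clones). For Days 3-4 against Days 1-2 it was 83 of 127 (53.8% of all clones). In both contrasts 0 were called (0% of all clones). Their median percentile was 41.0 to 55.2 on the 3 low Cy3 arrays, 69.7 to 75.8 on the other 6 and 19.3 to 43.5 on Cy5. This is nearer to the middle than the hnRNPs in each case. The spliceosome class was further out on the 3 low Cy3 arrays (21.3 to 43.9). It was no further out on the other 6 (55.4 to 74.7), and the ranges overlapped on Cy5 (22.3 to 29.1). The median level of a clone on Cy3 was above 0 for 92 of the 127 clones and for 29 of 40 spliceosome clones. On Cy5 it was above 0 for 27 of 127 and 5 of 40. Standing apart from the middle was thus not limited to the 3 classes.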

How the data were processed

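Each spot of an array has 1 deposited ratio. The authors scanned NIA cDNA arrays (2 slides of 17280 spots), quantified spots with ImaGene and scaled both channels to their mean intensity before taking the ratio of sample and pooled control. Which channel is on top, and any background subtraction, are not given in the sources used here. The labels describe the pool as EB RNA, the study's methods as RNA of all samples.

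Ratios were log2-transformed and duplicate spots averaged, taking the copy as the spot 160 further within print blocks of 360 spots (10140 of 10140 annotated pairs shared an accession), and 3840 edge spots were left out. Each slide of each array was centred on its median. All 15360 clones had a value in every condition and were fitted with limma 3.58.1 in R 4.3.3 (9 condition means and a dye term, which is also the replicate block, eBayes), with Benjamini-Hochberg adjustment over all clones within a contrast and a threshold of 0.05. The fit estimates a missing array's part from the others. Tables were made in Python 3.11.15 with pandas 2.3.3, and the fit was tested on simulated data. Symbols came from the platform annotation: 9866 clones had 1, 274 several and 5220 none. The study's filter on blank spots was not repeated.

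Members and lists were chosen with earlier results of these data known. Named clones were those of Hnrnpk and Srsf3, for each contrast the 3 of largest positive and 3 of largest negative t (1 clone a gene), every clone called, the 2 of smallest F test p in each class and the 3 genes with most clones. Other clones named were chosen after their values were seen, as were the fold criteria, percentiles and the difference between media. Alternatives were other centring and scaling, no dye term, array weights, filters on spots and clones, slide 2 alone, gene averages, turned Cy3 signs, a further 2-fold limit and leaving out each array. With 1 array per condition and dye, p-values measure the spread between these arrays, which may be technical, and the number of arrays limits the precision.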

Additional observations from a re-analysis of the deposited data

How the results depend on the processing

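In the main analysis 0 members were called in each of the 5 tests. Without the dye term, that is without the replicate block that pairs arrays by dye, 0 were called in each as well. Against D0, the EB mean called 1 of 89 members with whole arrays centred (1.43% of all clones), 9 of 89 as deposited (29.0%), 2 of 56 with clones on every array (3.28%) and 4 of 45 on slide 2 alone (2.79%), and the single EB conditions called 3 of 56 with clones on every array (6.29%) and 11 of 45 on slide 2 alone (17.1%). Leaving out 1 array gave 0 to 11 calls for any difference among conditions, 0 to 36 for the EB mean, 0 to 43 for single EB conditions, 0 to 1 for LIF withdrawal and 0 to 1 for Days 3-4; the 3 highest counts came without the D0 array in Cy5 (15.1%, 36.3% and 44.3% of all clones). Single EB conditions gave 20 without the D4+LIF array in Cy3 (18.7% of all clones) and 12 of 77 without the D1+LIF array in Cy3 (16.4%). The call for LIF withdrawal was Srsf11 9453 without D1+LIF in Cy3 (5.11% of all clones) and Sf3b2 27855 without D2-LIF in Cy3 (0.364%). That for Days 3-4 was Srsf11 9453 without D1+LIF in Cy3 (5.32% of all clones). Relative to all clones, the EB minus D0 class median of hnRNPs was 0.085 with equal median absolute deviation, -0.021 after quantile normalization, -0.44 on slide 2 and 0.17 with Cy3 turned. That of SR proteins was 0.14, 0.0099 and 0.11 with equal deviation, quantiles and Cy3 turned, and that of spliceosome proteins -0.14 and 0.28 with equal deviation and Cy3 turned. For LIF withdrawal hnRNPs gave -0.20, -0.091 and 0.32 with equal deviation, quantiles and slide 2, and with equal deviation SR proteins gave -0.056 and spliceosome proteins -0.028. For Days 3-4 hnRNPs gave -0.16, -0.10 and -0.10 with equal deviation, quantiles and slide 2, and SR proteins -0.15 with equal deviation. Spliceosome proteins gave -0.078 (whole arrays), -0.066 (as deposited), -0.10 (quantiles), -0.085 (duplicate spots within 1), -0.089 (every array), -0.092 (slide 2), -0.055 (gene averages) and 0.0017 (Cy3 turned). Leaving out 1 array gave, for hnRNPs, -0.88 to -0.55 (EB), 0.089 to 0.32 (LIF) and -0.11 to 0.12 (Days 3-4), for SR proteins -0.40 to -0.17, 0.12 to 0.22 and -0.078 to 0.087, and for spliceosome proteins -0.85 to -0.29, 0.10 to 0.18 and -0.10 to 0.0083. The 2-fold criterion on both dyes for the EB mean held for 4 members as deposited, 0 with equal deviation, 1 after quantiles, 1 on slide 2, 0 with Cy3 turned and 5 to 11 when 1 array was left out. For Days 3-4 it held for 1 after quantiles, and leaving out 1 array gave 0 for LIF withdrawal and Days 3-4. Fold from the pool held for 0 members with whole arrays centred, 0 on slide 2 and 20 with Cy3 turned (4.14% of all clones). For the other fold counts under these alternatives the share of all clones is not given. Those counts are therefore not read as results about the members. The cause of the changes between settings was not tested.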

Other observations

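Slide 1 of the D1+LIF array in Cy5, which had values for 4825 of 7680 clones, held extreme values of several members. Srsf11 clone 9453 read 7.86 there, against -0.31 to 0.18 on the other EB arrays in Cy5. Prpf19 177, Prpf3 2583, Prpf38a 8796 and U2af1l4 5561 read 1.81, 2.18, 2.21 and 1.82, while Prpf38b 11319 read -3.89. The LIF withdrawal call of Srsf11 9453 without the D1+LIF array in Cy3 rests on that single value. The same array gave 2.44 for Srsf3 15972 and -3.77 and -4.24 for Srsf3 9126 and 13092, so clones of 1 gene on 1 slide stood at opposite ends.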
